A study of Rattus norvegicus with 18 samples.

Results

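Chemokines of the CXC family that draw lymphocytes and monocytes were followed, with 2 of their receptors, through TNBS colitis in the rat colon. The ligands were Cxcl9, Cxcl10, Cxcl11, Cxcl12, Cxcl13 and Cxcl16, and the receptors were Cxcr3 and Cxcr4. The genes were chosen by name: a probe set was taken where the platform annotation gave it exactly 1 gene symbol and that symbol was among the 8. All 8 genes had such a probe set, out of 14217 genes in all, and 13 of the 31099 probe sets of the array read them. Cxcl12 and Cxcr4 had 3 probe sets each, Cxcl9 had 2 and the others had 1. Where a gene had several, the one with the highest mean over the 18 arrays stands for it, and the others are given beside it.

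TNBS is a hapten that provokes colitis when it is given into the rectum with ethanol, which breaches the mucosal barrier. Rats received 1 enema of 10 mg TNBS in 50% ethanol on day 0, and the colon was taken on day 2, 5, 7 or 14, from 3 rats at each time. The control group was 6 healthy rats that received saline by enema. RNA of full-thickness colon, the whole wall with its epithelium, stroma and muscle, was hybridised to Affymetrix Rat Genome 230 2.0 arrays, with 1 array per rat. The TNBS rats had been selected by the submitters on myeloperoxidase activity, weight loss and the ratio of colon weight to length, so they stand for inflamed rats and not for every treated rat. No group given ethanol alone was analysed here, and the strain, sex and age of the rats and the day on which the controls were sampled are not stated in the labels used here. Under extraction, the 12 TNBS samples are labelled with Trizol and the 6 controls with a manufacturer's manual alone, whereas the series text names Trizol for all. A difference in extraction, if there was one, and the treatment cannot be told apart.

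As background, Cxcl9, Cxcl10 and Cxcl11 are the ligands of Cxcr3, a receptor of activated T cells and natural killer cells, and interferon gamma induces all of them. Cxcl13 draws B cells that carry Cxcr5 into lymphoid follicles, such as those of the colon wall. Cxcl12 is made by stromal and endothelial cells and signals through Cxcr4, which most leukocytes carry. Cxcl16 is made as a membrane-anchored protein that can be shed, and its receptor Cxcr6 is found on T cells and natural killer T cells.

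Levels are given as log2 signal after quantile normalisation across the 18 arrays. The deposited values are on a log scale whose base the submitters did not state in what was used here; they were taken as log2 from their range. The deposited medians were 5.03 to 5.07 on TNBS arrays and 4.27 to 4.30 on control arrays, and without normalisation the median change of all probe sets was 0.54 to 0.59, against -0.04 to -0.01 after it. Every change below is therefore relative to the bulk of the probe sets. A gene was called where the adjusted p of limma, a linear model fitted over 31042 probe sets with the Benjamini-Hochberg adjustment, was under 0.05. A pair of arrays correlated better on average with the day 14 arrays than with their own group, TNBS day 2 replicate 1 (0.987 against 0.970) and TNBS day 5 replicate 1 (0.984 against 0.980). Calls of the 13 probe sets against control that changed without either array are given beside them. Krt20, a keratin of surface epithelium, and Myh11, the smooth muscle myosin heavy chain, lay above the 98th percentile of probe sets in every group, as the label of full-thickness colon requires.

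On day 5, 3 of the 8 genes rose against control (Cxcl9, Cxcl16 and Cxcr4) and Cxcl12 fell by the probe set that stands for it. On day 7 Cxcr4 rose, and on days 2 and 14 no gene of the 8 was called. With the replicate number as a block in the fit, of these calls only that of Cxcl9 on day 5 was kept. These counts take the 1 probe set that stands for each gene: another probe set of Cxcl12, 1388583_at, was called higher on days 2, 5 and 7, whereas the one that stands for the gene fell on day 5. With the block the other Cxcl9 probe set, 1382454_at, lost its day 5 call (limma adjusted p = 0.129). The other Cxcr4 probe sets kept their day 7 calls with it. Over all probe sets, limma called 9.13% higher and 9.87% lower on day 2, 12.1% higher and 14.5% lower on day 5, 12.4% higher and 15.9% lower on day 7, and 5.61% higher and 6.09% lower on day 14. The split depended on the scaling: over all probe sets 2835 were higher and 3065 lower on day 2 and 3762 and 4493 on day 5, against 25703 and 163, and 25104 and 340, on the deposited scale, and 2542 and 9722, and 3278 and 11078, after median centring. On days 7 and 14, 3849 were higher and 4951 lower, and 1741 and 1891, against 24872 and 331, and 26909 and 42, on the deposited scale, and 3460 and 12326, and 2276 and 8749, after median centring. Of the 8 genes 4, 5, 5 and 5 were called higher and none lower on the deposited scale. The 3 of 8 higher on day 5 is a larger share than the background, a difference that was not tested, while 1 of 8 lower on day 5 and 1 of 8 higher on day 7 are near it. At an unadjusted p under 0.05 limma passed 1, 5, 3 and 2 of the 8 genes on days 2, 5, 7 and 14, and 32.7%, 37.9%, 39.0% and 26.3% of all probe sets. The median log2 change of the 8 genes was -0.04 on day 2, 0.41 on day 5, 0.34 on day 7 and 0.29 on day 14, where that of all genes lay between -0.06 and -0.01. Every array of the day lay above every control for 0, 3, 3 and 1 of the 8 genes on days 2, 5, 7 and 14. The same held for 9%, 11.7%, 11.8% and 8.49% of all probe sets, so such a gap alone is common here.

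**Figure D1:**
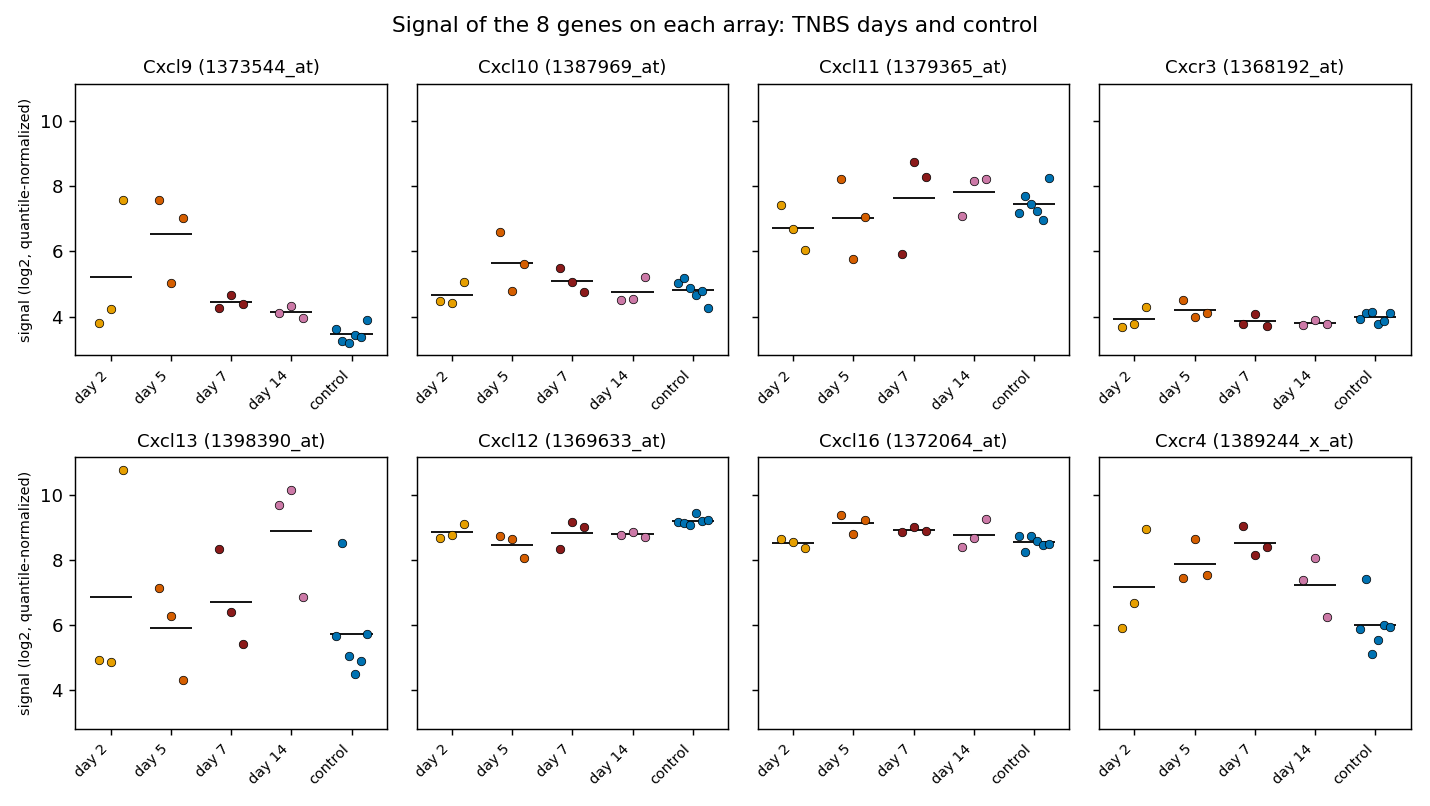
Level of each of the 8 genes on every array, as quantile-normalised log2 signal on the vertical axis, with the groups TNBS day 2, 5, 7 and 14 and control from left to right; each point is 1 rat and each bar is a group mean. The day 5 points of Cxcl9, Cxcl16 and Cxcr4 lie above all 6 control points, those of Cxcl12 lie below them, and Cxcl13 spreads from 4.87 to 10.77 within day 2 alone. Of all probe sets 11.7% lie wholly above control on day 5.

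The CXCR3 ligands lie close together on rat chromosome 14. In the RefSeq annotation of build GRCr8, Cxcl11 spans chr14:15973728-15976503, Cxcl10 spans chr14:15989066-15991263 and Cxcl9 spans chr14:16007166-16012077, so the 3 genes lie within 38.4 kb and read in the same direction. Another gene, Art3, spans chr14:15921540-16003764 and overlaps Cxcl11 and Cxcl10. Their promoters are shown because Cxcl9 was called on day 5 and its neighbours Cxcl10 and Cxcl11 were not. Cxcl10 just missed the threshold and passed it under several alternatives, and the difference between the genes was not tested. Each run is the 250 bases before the transcript start on the plus strand, at chr14:16006916-16007165 for Cxcl9, chr14:15988816-15989065 for Cxcl10 and chr14:15973478-15973727 for Cxcl11. Capitals mark matches to a pair of motifs searched on both strands: GAAA, any 2 bases and GAAA again, the core of the ISRE bound by interferon regulatory factors, and the NF-kB consensus.
Cxcl9: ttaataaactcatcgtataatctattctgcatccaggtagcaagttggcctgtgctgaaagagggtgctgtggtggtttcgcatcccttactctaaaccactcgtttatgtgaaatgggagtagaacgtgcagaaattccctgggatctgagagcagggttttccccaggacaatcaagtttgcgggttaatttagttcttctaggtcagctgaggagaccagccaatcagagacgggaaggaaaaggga
Cxcl10: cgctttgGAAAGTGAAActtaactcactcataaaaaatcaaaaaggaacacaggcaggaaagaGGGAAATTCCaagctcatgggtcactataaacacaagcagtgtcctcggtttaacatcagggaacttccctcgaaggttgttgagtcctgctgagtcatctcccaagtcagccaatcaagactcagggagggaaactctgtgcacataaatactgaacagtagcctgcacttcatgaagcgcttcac
Cxcl11: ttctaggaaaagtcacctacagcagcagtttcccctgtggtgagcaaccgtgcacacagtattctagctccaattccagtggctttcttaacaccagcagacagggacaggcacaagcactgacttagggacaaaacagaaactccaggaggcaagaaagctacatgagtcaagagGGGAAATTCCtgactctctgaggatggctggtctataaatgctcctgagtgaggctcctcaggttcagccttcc
The Cxcl10 window held an ISRE core match at -243 to -234 from the start and an NF-kB match at -187 to -178, and the Cxcl11 window held an NF-kB match at -74 to -65. None of these matches overlapped another. Of 27457 RefSeq promoters cut to the same 250 bases, 3.29% held an ISRE core match and 3.52% an NF-kB match. The Cxcl9 window held no match, which says only that these letters are not in it. Among the 8 genes, 1 window held an ISRE core match and 2 an NF-kB match, so the windows of the other 5 genes held none.

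Cxcl9, a CXCR3 ligand known as the monokine induced by interferon gamma, was higher on day 5. It read 3.79, 4.24 and 7.58 on the day 2 arrays, with 7.59, 5.03 and 7.03 on day 5, then 4.28, 4.66 and 4.37 on day 7, and 4.10, 4.33 and 3.96 on day 14. In control it ran from 3.19 to 3.90 with a median of 3.41. Every array of days 5, 7 and 14 lay above every control array, whereas day 2 overlapped the controls and 1 of its 3 arrays was nearly as high as the highest day 5 array. The log2 change was 3.09 ± 0.63 (SE) on day 5, an 8.50-fold increase (limma adjusted p = 0.00227). The control mean lay at percentile 15.1 of probe sets, and with no detection call in the table used here that level could not be told from background, so the fold has no firm base. It was 1.74 ± 0.63 on day 2 (adjusted p = 0.0662), 0.98 ± 0.63 on day 7 (adjusted p = 0.274) and 0.67 ± 0.63 on day 14 (adjusted p = 0.547). Without TNBS day 2 replicate 1 the day 2 change was 2.45 and was called (adjusted p = 0.0159), and without TNBS day 5 replicate 2 it was called as well (adjusted p = 0.0381). The day 5 call held with each array left out in turn, with changes of 2.57 to 3.85. As for every gene here, fewer cells of a type and less RNA per cell cannot be told apart in whole colon.

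The second Cxcl9 probe set, 1382454_at, gave a smaller day 5 change of 1.93 ± 0.66 (limma adjusted p = 0.0391). It was not called with the replicate block (adjusted p = 0.129) or a trended robust prior (adjusted p = 0.053). The day 5 call was also lost when any 1 of 8 arrays was left out, namely each of the 6 controls and TNBS day 5 replicates 1 and 3. Without TNBS day 5 replicate 1 the change was 1.25 (adjusted p = 0.217). Its highest array was TNBS day 2 replicate 3, at 7.45, and without TNBS day 2 replicate 1 its day 2 change was 2.09 and was called (adjusted p = 0.0439).

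Cxcl10, the interferon-induced protein 10, moved less. It read 4.47, 4.43 and 5.05 on day 2, with 6.58, 4.77 and 5.61 on day 5, then 5.48, 5.07 and 4.74 on day 7, and 4.52, 4.54 and 5.22 on day 14, and control ran from 4.27 to 5.20 with a median of 4.83. Of the day 5 arrays 2 lay above every control and the other lay within the controls' range. The day 5 change was 0.85 ± 0.31 and missed the threshold (limma adjusted p = 0.0529). It passed without TNBS day 5 replicate 2 (1.29, adjusted p = 0.00757), without control replicate 2 (adjusted p = 0.0458) and with median centring (0.89, adjusted p = 0.0298). It passed as well on the deposited scale (1.65, limma adjusted p = 0.000157) and with array weights (1.13, adjusted p = 0.0058). Without the dimmest 50% of probe sets, with a trended robust prior or with 1 probe set per gene it also passed (adjusted p = 0.0389, 0.0483 and 0.046). It stayed uncalled with the replicate block or only the compared groups in the fit. On the other days the change lay between -0.15 and 0.30 and was not called.

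Cxcl11, also called I-TAC, showed no called change on any day. It read 7.42, 6.69 and 6.04 on day 2, with 8.22, 5.75 and 7.06 on day 5, then 5.93, 8.74 and 8.28 on day 7, and 7.08, 8.16 and 8.21 on day 14, against 6.97 to 8.26 in control with a median of 7.35. Its lowest and highest arrays were TNBS day 5 replicate 2 and TNBS day 7 replicate 2. The spread within days 5 and 7 was wider than within control (SD 1.23 on day 5 and 1.51 on day 7, n = 3 each, against 0.46 in control, n = 6). The changes were -0.75, -0.46, 0.18 and 0.35 on days 2, 5, 7 and 14 (SE 0.57 each), and the 95% interval of the day 5 change, -1.68 to 0.76, leaves room for differences of either sign. On the deposited scale the day 5 change was 0.25, so its sign depended on the scaling. The 4 lowest Cxcl11 arrays, TNBS day 5 replicate 2, TNBS day 7 replicate 1 and TNBS day 2 replicates 3 and 2, were also the 4 with the lowest mean of 11 epithelial markers, at -0.55, -0.96, -0.40 and -0.65 from the control mean. The other 14 arrays lay at -0.27 or above. The high end did not follow: TNBS day 7 replicates 2 and 3 had the highest Cxcl11 levels, 8.74 and 8.28. Their epithelial means also lay below every control, as the highest of day 7 was -0.25 and the lowest control -0.13. The part of the epithelium in the Cxcl11 level was not tested.

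The group means of Cxcl9 were 5.20, 6.55, 4.44 and 4.13 on days 2, 5, 7 and 14, against 3.46 in control, so that day 5 was highest and control lowest. Those of Cxcl10 were 4.65, 5.66, 5.10 and 4.76 on the same days, against 4.80 in control, with day 5 highest and day 2 lowest. Those of Cxcl11 were 6.72, 7.01, 7.65 and 7.82, against 7.47 in control, with day 14 highest and day 2 lowest. No difference between consecutive days was called for any of the 3 ligands.

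Cxcr3, the receptor of the 3 ligands, was dim, and it was flat after quantile normalisation. It read 3.69, 3.76 and 4.30 on day 2, with 4.50, 4.00 and 4.12 on day 5, then 3.78, 4.09 and 3.71 on day 7, and 3.75, 3.89 and 3.78 on day 14. Control ran from 3.78 to 4.14 with a median of 4.01, and each TNBS day overlapped it. The group means lay at percentiles 27.9 to 38.9 of probe sets, and the deposited table used here holds no detection call that could tell such a level from background. The day 5 change was 0.22 ± 0.14 (limma adjusted p = 0.285), with a 95% interval of -0.08 to 0.52. On days 2, 7 and 14 the changes of Cxcr3 were -0.07, -0.13 and -0.18 and were not called. On the deposited scale they were 0.55, 0.46 and 0.39, with the opposite sign, and the day 5 change was 0.85. Each was called higher on that scale (limma adjusted p = 0.00394, 0.0129, 0.0282 and 0.000131 on days 2, 7, 14 and 5). The median change of all probe sets was 0.54 to 0.59 there.

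The inducer of these ligands and its response were read on the same arrays. Ifng, which encodes interferon gamma, lay between 2.91 and 3.21 on all 18 arrays, with group means at percentiles 1.68 to 3.22 of probe sets, and no day was called. Of 19 measured genes of interferon gamma and its response, limma called 3 higher and 1 lower on day 2, 10 higher and 1 lower on day 5, 9 higher and 2 lower on day 7, and 4 higher and 1 lower on day 14. Their median log2 change was 0.39, 0.73, 0.57 and 0.30 on those days, and of all 14217 genes 11.4% were higher and 10.7% lower on day 2, 14.7% higher and 16.5% lower on day 5, 14.7% higher and 18.7% lower on day 7, and 6.40% higher and 6.37% lower on day 14. On the deposited scale 17 or 18 of the 19 were higher on every day and none was lower. Tap1, a peptide transporter of antigen presentation, rose by 1.06 ± 0.32 on day 2, 2.71 ± 0.32 on day 5, 1.61 ± 0.32 on day 7 and 1.16 ± 0.32 on day 14 (limma adjusted p = 0.0308, 3.69e-05, 0.00156 and 0.0275). Irf1, an interferon-induced transcription factor, rose by 1.65 ± 0.25 on day 5 (adjusted p = 0.000249) and 1.23 ± 0.25 on day 7 (adjusted p = 0.00171), and Gbp2, a guanylate-binding protein, by 2.29 ± 0.38 and 2.46 ± 0.38. Jak1, a kinase of the interferon gamma receptor, rose on all 4 days by 0.47 to 0.57.

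T cells and natural killer cells, which carry Cxcr3, were followed by their markers. Of 13 measured T cell markers, 2, 1, 3 and 2 were called higher on days 2, 5, 7 and 14 and none lower. Their medians were 0.43, 0.33, 0.28 and 0.61, and 11.4%, 14.7%, 14.7% and 6.40% of all genes were higher. On the deposited scale 9, 9, 7 and 13 of the 13 were higher. The list mean of the T cell markers, as a difference from the control mean, was -0.28, -0.13 and 2.00 on the day 2 arrays. It ran from 0.18 to 0.77 on day 5, against -0.17 to 0.48 in control. Cd6, a T cell surface receptor, rose by 0.83 ± 0.24 on day 5 (limma adjusted p = 0.0175), and Cd2 and Cd8a, an adhesion receptor of T cells and a chain of the CD8 coreceptor, rose on day 7 by 0.92 ± 0.33 and 1.10 ± 0.34 (adjusted p = 0.046 and 0.0227). Of 7 natural killer and cytotoxic cell markers 1 was called, Gzmb, which encodes granzyme B and rose by 0.55 ± 0.15 on day 5 (adjusted p = 0.0111). The part of these cells in the levels of the ligands was not tested.

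Among 6 measured partners of the CXCR3 system, 2, 3, 4 and 0 were higher on days 2, 5, 7 and 14, and Dpp4 was lower on day 7. On the deposited scale 5, 5, 5 and 4 of the 6 were higher and none was lower. The share of all genes that were higher was 11.4%, 14.7%, 14.7% and 6.40% on these days, and 18.7% were lower on day 7. Dpp4, a membrane peptidase that trims and inactivates these ligands, stood at 7.36 ± 1.09 on day 5 and 6.99 ± 0.89 on day 7 (SD, n = 3 each), against 8.62 ± 0.65 in control (n = 6). Its change was -1.26 ± 0.49 on day 5, which was not called (limma adjusted p = 0.0686), and -1.63 ± 0.49 on day 7, which was (adjusted p = 0.0207). Ccl3, Ccl4 and Ccl2, CC chemokines for monocytes and T cells, rose on day 7 by 5.94 ± 0.52, 2.83 ± 0.25 and 3.33 ± 0.56 (adjusted p = 2.76e-06, 2.99e-06 and 0.000452). Ccl5, which shares the T cell attracting role, rose by 0.50 ± 0.18 on day 7 alone (adjusted p = 0.0483).

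**Figure D2:**
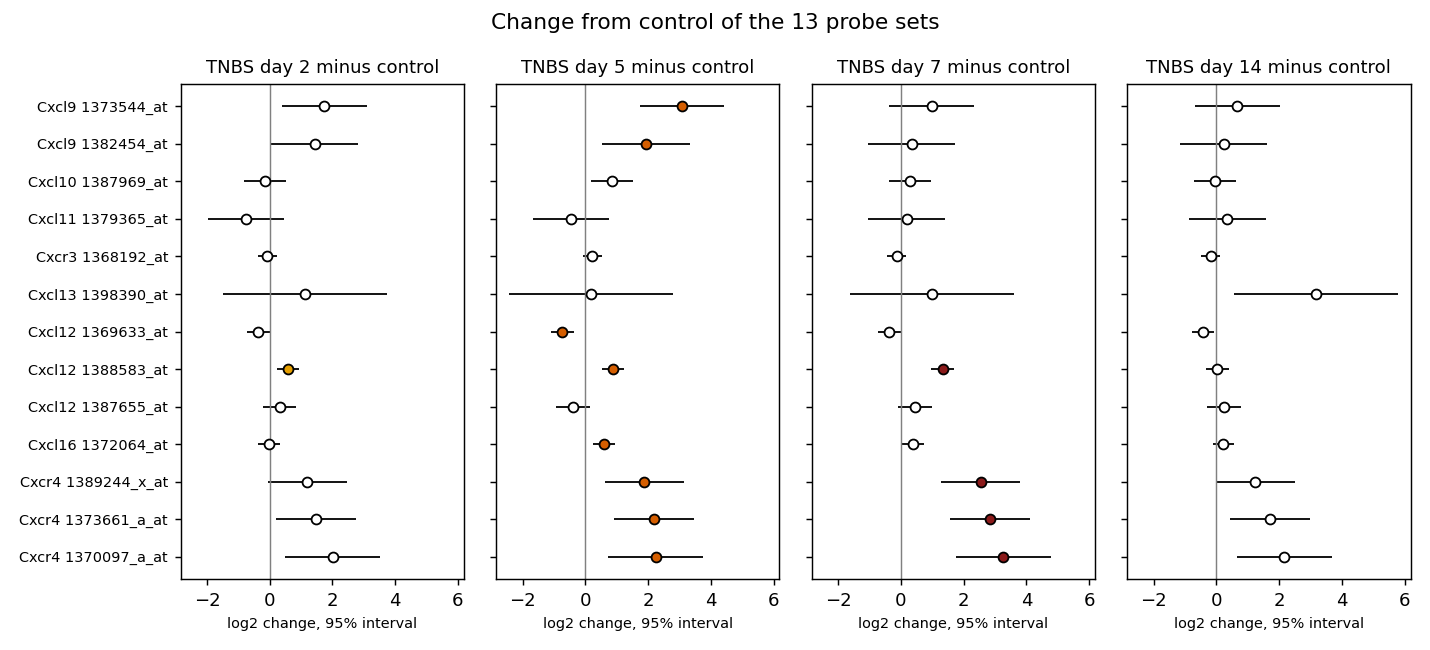
Log2 change against control (horizontal axis) of each of the 13 probe sets, 1 panel per TNBS day from day 2 to day 14, with 95% intervals from limma; filled points were called at an adjusted p under 0.05 and open points were not. The filled points are 1 on day 2, 8 on day 5, 4 on day 7 and 0 on day 14, and of them only Cxcl12 1369633_at on day 5, at -0.74, lies left of 0.

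Cxcl13, the B cell chemokine, had the widest spread within 1 group among the 8 genes (SD 3.39 on day 2, n = 3). It read 4.93, 4.87 and 10.77 on day 2, with 7.14, 6.27 and 4.33 on day 5, then 8.35, 6.39 and 5.44 on day 7, and 9.68, 10.14 and 6.85 on day 14. In control it read 5.66, 8.51, 5.07, 4.51, 4.90 and 5.72. The highest array of all was on day 2, 1 control lay above every day 5 and day 7 array, and every group overlapped control. On day 14, 2 of 3 arrays lay above every control, and the change was 3.16 ± 1.23, or 8.95-fold, which was not called (limma adjusted p = 0.112). It was called without TNBS day 2 replicate 3 (adjusted p = 0.0355), although that array is not in the comparison, because the fit shares 1 estimate of the spread. With only the compared groups in the fit it was called too (limma adjusted p = 0.0416). The same holds on the deposited scale (3.86, adjusted p = 0.00782), where the median change of all probe sets was 0.58. The changes on days 2, 5 and 7 were 1.13, 0.19 and 1.00 (SE 1.23 each). The group means of Cxcl13 were 6.86, 5.91, 6.73 and 8.89 on days 2, 5, 7 and 14, against 5.73 in control, with no called difference between consecutive days.

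The B cell markers were high on the arrays where Cxcl13 was high. Their list mean, as a difference from the control mean, was -0.53, -0.31 and 2.74 on day 2, with 0.67, -0.33 and -0.41 on day 5, then 0.84, -0.44 and -0.55 on day 7, and 1.59, 2.36 and 0.55 on day 14, and control replicate 2 stood at 1.97 where the other 5 controls lay between -0.60 and -0.25. Of 7 measured B cell markers limma called none on any day. On the deposited scale 4, 2, 0 and 6 of them were higher on days 2, 5, 7 and 14. Cd79b and Ms4a1, a part of the B cell receptor and the CD20 antigen, had day 14 changes of 2.61 ± 1.03 and 3.18 ± 1.31 (adjusted p = 0.115 and 0.13). Cr2, the complement receptor of B cells and follicular dendritic cells, had one of 3.04 ± 1.23 (adjusted p = 0.124). Of 7 plasma cell markers, Prdm1, a plasma cell transcription factor also found in other cells, rose on days 5 and 7 by 0.62 ± 0.20 and 0.63 ± 0.20, and Jchain, the immunoglobulin joining chain, fell on day 5 by 1.67 ± 0.53 (adjusted p = 0.0289). How much lymphoid tissue each piece of colon held was not tested apart from these markers.

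**Figure D3:**
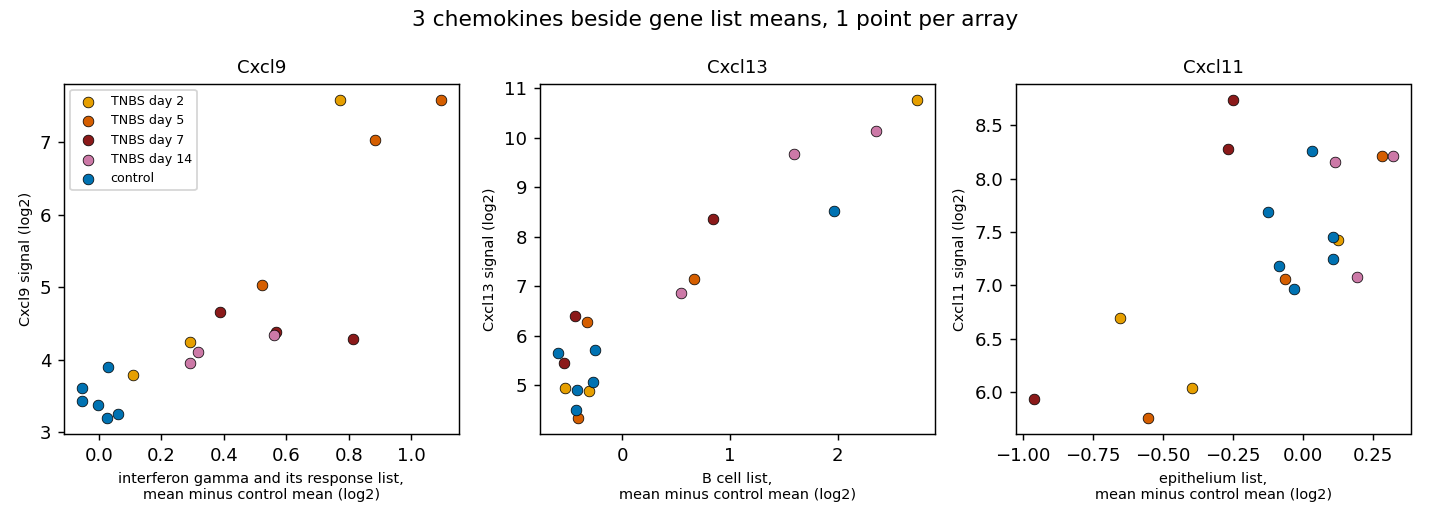
Level of Cxcl9, Cxcl13 and Cxcl11 (vertical axis, quantile-normalised log2 signal) against the mean of a gene list on the same array (horizontal axis, log2 difference from the control mean), 1 point per rat and coloured by group: interferon gamma and its response for Cxcl9, B cell markers for Cxcl13 and epithelial markers for Cxcl11. The Cxcl13 array at 10.77 is TNBS day 2 replicate 3, where the B cell list stood at 2.74, and control replicate 2, at 8.51, stood at 1.97; the points share arrays and their scaling.

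Several partners of Cxcl13 in lymphoid follicles were called. Of 16 measured genes, 1 of them (Cr2) also a B cell marker here, 4, 4, 4 and 3 were higher on days 2, 5, 7 and 14. None was lower, and the medians were 0.71, 0.39, 0.37 and 0.72. On the deposited scale 15, 11, 11 and 16 of the 16 were higher. Of all genes, after quantile normalisation, 11.4%, 14.7%, 14.7% and 6.40% were higher on those days. Nfkb2, a subunit of non-canonical NF-kB, rose on all 4 days by 0.96 to 1.70, and Relb, its binding partner, rose on days 2, 5 and 7 by 0.67, 0.79 and 0.88. Madcam1, the mucosal addressin to which gut-homing lymphocytes bind, rose by 1.56, 1.98, 1.83 and 1.60 (SE 0.32 each) on days 2, 5, 7 and 14. Ccl21, a chemokine of lymphatic vessels and T cell zones, rose on day 2 by 1.72 ± 0.38 (limma adjusted p = 0.00542). Cxcr5, the receptor of Cxcl13, had changes of 0.31, 0.19, -0.02 and -0.03 and was called on no day.

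Cxcl12, the stromal chemokine, gave no single direction, because its 3 probe sets disagreed. The one that stands for the gene, 1369633_at, read 8.68, 8.76 and 9.11 on day 2, with 8.74, 8.63 and 8.05 on day 5, then 8.35, 9.17 and 9.0 on day 7, and 8.78, 8.86 and 8.71 on day 14, against 9.09 to 9.44 in control with a median of 9.17. All arrays of days 5 and 14 lay below every control. It fell by 0.74 ± 0.17 on day 5 (limma adjusted p = 0.00507), but by 0.27 on the deposited scale, where it was not called (adjusted p = 0.115). On days 2, 7 and 14 it changed by -0.36, -0.37 and -0.42, not called. On the deposited scale these signs turned (0.07, 0.09 and 0.09, not called), and after median centring the changes were -0.69, -0.68 and -0.66 and were called lower (adjusted p = 0.00328, 0.00254 and 0.00507), with -1.04 on day 5.

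The second Cxcl12 probe set, 1388583_at, moved the other way. It read 7.62, 8.24 and 7.99 on day 2, with 7.96, 8.64 and 8.16 on day 5, then 8.30, 8.77 and 9.04 on day 7, and 7.56, 7.40 and 7.20 on day 14, against 7.21 to 7.53 in control with a median of 7.39. All 9 arrays of days 2, 5 and 7 lay above every control, and day 14 overlapped control. It rose by 0.58 ± 0.17, 0.88 ± 0.17 and 1.33 ± 0.17 on days 2, 5 and 7 (limma adjusted p = 0.0269, 0.00155 and 5.77e-05), and the day 14 change was 0.02. Between day 14 and day 7 it fell by 1.31 ± 0.20 (adjusted p = 0.00201), with day 14 arrays all below day 7 arrays. The day 5, day 7 and day 14 against day 7 calls held with each array left out; the day 2 call was lost without TNBS day 2 replicate 2 (0.44, adjusted p = 0.158), TNBS day 2 replicate 3 (adjusted p = 0.0947) or control replicate 4 (adjusted p = 0.0508). On the deposited scale its day 14 change was called (0.79, limma adjusted p = 0.000464). The third probe set, 1387655_at, was the dimmest, from 3.99 to 5.71, and was not called on any day, with changes of 0.31, -0.39, 0.46 and 0.24. With array weights it was called on day 7 (0.66, adjusted p = 0.0343). On the deposited scale it was called higher on days 2, 7 and 14 (1.07, 1.25 and 1.01). The median change of all probe sets was 0.54 to 0.59 there. The platform table gives all 3 the symbol Cxcl12 and does not say which transcript each reads.

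**Figure D4:**
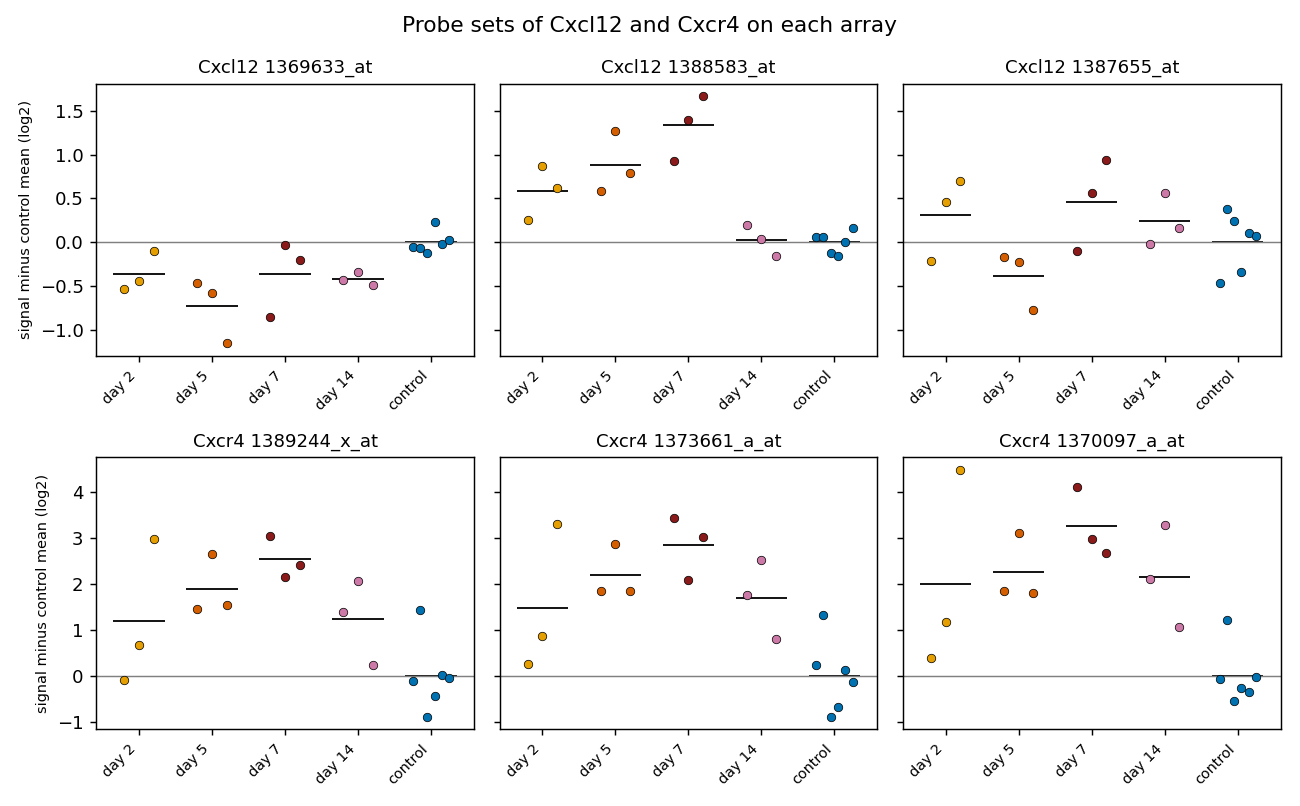
Level of the 3 probe sets of Cxcl12 (top) and of Cxcr4 (bottom) on each array, as log2 signal minus the control mean, with the TNBS days and control from left to right; each point is 1 rat and each bar a group mean. The Cxcl12 probe sets part in direction on day 5, at means of -0.74, 0.88 and -0.39, while those of Cxcr4 have means above control on every TNBS day.

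Cxcr4, the receptor of Cxcl12, rose on days 5 and 7 by all 3 of its probe sets. The one that stands for it, 1389244_x_at, read 5.91, 6.68 and 8.97 on day 2, with 7.45, 8.64 and 7.55 on day 5, then 9.05, 8.15 and 8.40 on day 7, and 7.39, 8.06 and 6.24 on day 14. Control read 5.88, 7.43, 5.11, 5.56, 6.01 and 5.96. Every day 5 and day 7 array lay above every control, on day 5 by a narrow margin over control replicate 2, and days 2 and 14 overlapped control. The change was 2.54 ± 0.59 on day 7, a 5.82-fold increase (limma adjusted p = 0.00464), and this call held with each array left out (2.29 to 2.83). With the replicate number as a block in the fit the day 7 change was 2.39 and just missed the threshold (limma adjusted p = 0.0519). On day 5 it was 1.89 ± 0.59 (adjusted p = 0.0273). That call was lost without control replicate 3 (adjusted p = 0.0526), control replicate 4 (adjusted p = 0.0504), TNBS day 5 replicate 2 (1.50, adjusted p = 0.146) or TNBS day 5 replicate 3 (adjusted p = 0.0524). The changes of 1.19 ± 0.59 on day 2 and 1.24 ± 0.59 on day 14 were not called (adjusted p = 0.176 and 0.198); without TNBS day 2 replicate 1 the day 2 change was 1.83 and was called (adjusted p = 0.0468).

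The other Cxcr4 probe sets gave 2.20 and 2.25 on day 5 and 2.85 and 3.26 on day 7, each called, and 1.47 and 2.01 on day 2 and 1.70 and 2.16 on day 14, none called (limma adjusted p = 0.0992 and 0.0605, and 0.0798 and 0.0619). The day 5 call of 1373661_a_at was lost without TNBS day 5 replicate 2 (adjusted p = 0.0812), and that of 1370097_a_at without the same array (adjusted p = 0.145), TNBS day 5 replicate 3 (adjusted p = 0.0524) or control replicate 3 (adjusted p = 0.0511). With the replicate block both probe sets lost their day 5 call (limma adjusted p = 0.113 and 0.164) and kept their day 7 call. Without TNBS day 2 replicate 1 both were called on day 2 (2.08 and 2.82, adjusted p = 0.0309 and 0.0134), and 1370097_a_at was called on day 14 (adjusted p = 0.0385). Without TNBS day 2 replicate 3 or control replicate 2 both were called on day 14, and without control replicate 2 1370097_a_at was called on day 2 (adjusted p = 0.0426). On day 14 both were also called with median centring (limma adjusted p = 0.0251 and 0.0236) and with array weights (0.02 and 0.0161). With only the compared groups in the fit both were called then too (adjusted p = 0.0391 and 0.0137). On the deposited scale all 3 Cxcr4 probe sets were called higher on days 2 and 14, by 1.94 to 2.87. The median change of all probe sets there was 0.59 and 0.58. The probe sets of 1 gene are not independent measurements. The group means of 1389244_x_at were 7.18, 7.88, 8.53 and 7.23 on days 2, 5, 7 and 14, against 5.99 in control, with no called difference between consecutive days. Ackr3, the scavenger receptor of Cxcl12, changed by -0.33, -0.34, -0.04 and -0.23 and was called on no day.

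Of 13 measured partners of Cxcl12, Cxcr4 and Cxcl16, 3, 7, 8 and 1 were higher on days 2, 5, 7 and 14 and none lower, and 5 were lower on day 14 than on day 7. The share of all genes that were higher was 11.4%, 14.7%, 14.7% and 6.40%, and 4.32% were lower on day 14 than on day 7. On the deposited scale 9, 11, 13 and 10 of the 13 were higher. Mmp9 and Mmp2, matrix metalloproteinases that can cleave Cxcl12, rose on day 7 by 2.99 ± 0.51 and 1.51 ± 0.27 (limma adjusted p = 0.000536 and 0.000673). Hspg2, the heparan sulphate proteoglycan perlecan, and Pecam1, an adhesion molecule of endothelium, rose on day 7 by 1.27 ± 0.22 and 1.60 ± 0.32. On day 14 these 4 genes had changes between -0.06 and 0.63, none called.

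Markers of the cells that carry or make these proteins were read on the same arrays. Monocyte and macrophage markers were higher for 13, 13, 14 and 0 of 16 on days 2, 5, 7 and 14, and their list mean ran from 2.42 to 2.53 on day 7 and from 0.00 to 0.77 on day 14, against -0.25 to 0.21 in control. The share of all genes that were higher was 11.4%, 14.7%, 14.7% and 6.40% on the same days. On the deposited scale 16, 16, 16 and 14 of the 16 were higher. Cd68, a lysosomal protein of macrophages, rose by 2.55, 3.18 and 3.79 (SE 0.38 each) on days 2, 5 and 7, and the macrophage genes Gpnmb, Clec7a and Aif1 rose on the same days by 3.67, 1.19 and 1.69 on day 2 and by 4.17, 4.14 and 2.75 on day 7. Neutrophil markers were higher for 4, 5, 5 and 2 of 6, with S100a9 and S100a8, the subunits of calprotectin, at 7.59 and 7.78 above control on day 7, and Csf3r and Cxcr2, 2 receptors of neutrophils, at 5.15 and 2.01. Endothelial markers were higher for 1, 7, 7 and 0 of 8, and stromal markers for 2, 8, 9 and 0 of 11, with day 7 changes of 1.06, 1.74 and 1.83 for Plvap, Tie1 and Kdr of vessels and of 2.24, 1.89 and 1.72 for Pdpn, Col1a2 and Pdgfrb of fibroblasts. On the deposited scale 6, 6, 6 and 3 neutrophil, 6, 8, 8 and 7 endothelial and 8, 10, 11 and 6 stromal markers were higher. Of 8 smooth muscle markers 3, 4, 2 and 2 were lower, where on the deposited scale 2, 4, 1 and 2 were lower and 1, 0, 2 and 1 higher. The share of all genes that were lower was 10.7%, 16.5%, 18.7% and 6.37%. The part of these cells in the levels of Cxcr4 and Cxcl12 was not tested.

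Cxcl16 rose on day 5 and was not called on the other days. It read 8.66, 8.57 and 8.38 on day 2, with 9.39, 8.81 and 9.23 on day 5, then 8.87, 9.0 and 8.90 on day 7, and 8.40, 8.66 and 9.25 on day 14, against 8.25 to 8.74 in control with a median of 8.54. All arrays of days 5 and 7 lay above every control. The change was 0.60 ± 0.16 on day 5, a 1.52-fold increase (limma adjusted p = 0.0135), and -0.01, 0.38 and 0.23 on days 2, 7 and 14 (SE 0.16 each), which were not called. The day 5 call was lost without TNBS day 5 replicate 1 (0.48, adjusted p = 0.076) or replicate 3 (adjusted p = 0.0578), and with median centring (0.32, adjusted p = 0.139). Its group means were 8.53, 9.14, 8.92 and 8.77 on days 2, 5, 7 and 14, against 8.54 in control, with no called difference between consecutive days.

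Adam10 and Adam17 encode proteases that can shed Cxcl16 from the membrane. Adam17 stood at 8.55 ± 0.08 on day 5 and 8.65 ± 0.39 on day 7 (SD, n = 3 each), against 8.06 ± 0.18 in control (n = 6). It rose by 0.49 ± 0.14 and 0.59 ± 0.14 on these days (limma adjusted p = 0.0178 and 0.00546). Adam10 had changes of 0.66, 0.13, -0.13 and 0.46 (SE 0.25 each) and was called on no day. Cxcr6, the receptor of Cxcl16, had no single-symbol probe set and was not analysed here. Dendritic cells are among the cells known to make Cxcl16. Of 5 dendritic cell markers 0, 2, 1 and 1 were higher on days 2, 5, 7 and 14 and none lower, with medians of 0.11, 0.0040, 0.029 and 0.21. The share of all genes that were higher was 11.4%, 14.7%, 14.7% and 6.40%. On the deposited scale 4, 4, 4 and 5 of the 5 were higher. Itgax, a beta-2 integrin chain of myeloid cells, rose on days 5 and 7 by 1.97 ± 0.31 and 2.83 ± 0.31, and Batf3, a transcription factor of cross-presenting dendritic cells, rose on days 5 and 14 by 0.30 and 0.34 (SE 0.10 each). Epithelial markers were higher for 1 and lower for 1 of 11 on day 5, and lower for 5 of 11 on day 7. On the deposited scale these counts were 2 and 1 on day 5 and 2 lower on day 7. Of all genes 16.5% were lower on day 5 and 18.7% on day 7.

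Few differences between TNBS days were called. None of the 8 genes was called between days 5 and 2, 7 and 5, 14 and 7 or 14 and 2, or in the F test among the 4 days, where limma called 0.0129%, 0.0161%, 4.14%, 0.029% and 2.45% of all probe sets. At an unadjusted p under 0.05 limma passed 2, 2, 0, 0 and 2 of the 8 genes, and 9.57%, 6.53%, 18.1%, 7.89% and 16.2% of all probe sets. Of the 13 probe sets only 1388583_at of Cxcl12 was called, on day 14 against day 7 and in the F test (adjusted p = 0.0111). The comparisons with control share the same 6 control arrays.

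The neutrophil-attracting CXC chemokines gave a scale for these changes on the same arrays. Of 9 measured other CXC chemokines and receptors, 4, 5, 6 and 0 were higher on days 2, 5, 7 and 14, and 6 were lower on day 14 than on day 7. The share of all genes that were higher was 11.4%, 14.7%, 14.7% and 6.40%, and 4.32% were lower on day 14 than on day 7. On the deposited scale 8, 8, 8 and 6 of the 9 were higher. On day 7 Cxcl14, a chemokine named here after its value was seen, was lower by limma (-1.47 ± 0.44, adjusted p = 0.0192), and on the deposited scale none of the 9 was lower. Cxcl2 and Cxcl1, ligands of Cxcr2 on neutrophils, rose on day 7 by 8.37 ± 0.55 and 6.38 ± 0.45, Cxcl3 by 2.27 ± 0.32 and Cxcl6 by 2.19 ± 0.32, and on day 14 their changes lay between -0.44 and 1.20 and were not called.

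The genes whose profiles over the 18 arrays lay closest to each of the 8 were found by the root-mean-square difference of log2 level, each profile taken relative to its own control mean, among 9566 candidate genes. For Cxcl9 they were Tap1 at 0.74, Gbp7 at 0.82 and Psmb9 at 0.82, where the median candidate stood at 1.78. For Cxcl13 they were Cd79b at 0.73, Ms4a1 at 0.79 and Glycam1 at 0.82. For Cxcr4 they were Nckap1l at 0.36, Slc15a3 at 0.38 and Pip4k2a at 0.41, for Cxcl10 Irgm2 at 0.37, Ccl17 at 0.39 and Mical1 at 0.40, and for Cxcl11 Mpst at 0.42, Cdx2 at 0.48 and Nlrp6 at 0.50. The nearest genes were Cfap36, Srpra and Stag1 at 0.17 to 0.19 for Cxcl12, Saraf, Rfx1 and Trim26 at 0.20 to 0.23 for Cxcl16, and Dgkz, Prr14l and Rab8a at 0.16 to 0.18 for Cxcr3. The median candidate stood at 2.21 for Cxcl13, 1.71 for Cxcr4, 0.67 for Cxcl10 and 0.92 for Cxcl11. It stood at 0.54 for Cxcl12, 0.53 for Cxcl16 and 0.42 for Cxcr3. A gene that moves less has smaller differences, so each value is to be read against its own median. Among the 3 CXCR3 ligands the difference was 1.45 between Cxcl9 and Cxcl10, 2.09 between Cxcl9 and Cxcl11 and 1.01 between Cxcl10 and Cxcl11.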

How the data were processed

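Total RNA of 18 rat colons was measured on 18 arrays. Per the labels, the authors normalised the arrays with the affyPLM package of Bioconductor; its version, the background method and the log base were not stated in what was used here. The values they deposited were taken as log2 signal from their range. They were quantile-normalised over all 31099 probe sets, 57 array control probe sets were dropped, and limma 3.58.1 in R 4.3.3 was fitted with 1 mean per group over all 18 arrays. Samples were grouped by their titles. Probe sets were named from GEO's platform annotation: 20826 had 1 symbol, 436 had several and 9780 had none. Promoters and gene positions come from RefSeq (GRCr8). On simulated data for day 5 against control (31042 probe sets) limma recovered 84% of changes of 1 log2 unit and 99% of changes of 2. The changed probe sets were drawn at random, with independent normal noise at the spread of each. These rates are averages and do not describe a noisy probe set such as that of Cxcl13, where a change of that size may go uncalled. Arrays give no counts, so the number of arrays limits the precision. The 8 genes and all gene lists were chosen with earlier results of these data known. Named genes were the 8, a fixed set of direct partners, up to 4 genes of each list by the smallest p of the F test of all days against control, and the 3 nearest profiles of each gene. Alternatives were the deposited scale, median centring, a filter on dim probe sets, a trended robust prior, array weights, only the groups compared, a replicate block, 1 probe set per gene, a threshold of 0.01 and leaving out each array.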

Additional observations from a re-analysis of the deposited data

Results flagged for a closer look

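In control, 1 rat stood far from the other 5 for 2 of the 13 probe sets. Control replicate 2 read 8.51 for Cxcl13, where the other controls lay between 4.51 and 5.72, and its gap to the nearest was 0.698 of the group's range. The same rat read 5.26 for the Cxcr4 probe set 1370097_a_at, where the others lay between 3.50 and 4.03, a gap of 0.702 of the range. Chance alone flags about 1 in 20 groups, and the 2 probe sets share this rat. Its B cell list mean was 1.97 above the control mean.

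The effect of TNBS on the Cxcl12 probe set 1388583_at differed between day 14 and day 7 by -1.31 log2 units, by limma's test of that difference (adjusted p = 0.00201); the 2 other probe sets of the gene were not called in it.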

How the results depend on the processing

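Of the 8 genes, 0, 4, 1 and 0 were called on days 2, 5, 7 and 14. On the deposited scale 4, 5, 5 and 5 were called, with median centring 1, 4, 2 and 1, with only the groups compared in the fit 0, 4, 3 and 3, and at an adjusted p under 0.01 the counts on days 5 and 7 were 2 and 1. With array weights 5 were called on day 5, 1 between days 7 and 5 and 1 in the F test among days, against none as reported. Among changes called as reported or under the alternative, directions turned in 5 cases, all on the deposited scale: Cxcl16 on day 2 (0.48), Cxcr3 on days 2, 7 and 14 (0.55, 0.46 and 0.39) and Cxcl10 on day 14 (0.70), where the median change of all probe sets was 0.54 to 0.59. Leaving out 1 array gave 0 to 2 calls on day 2 (2 without TNBS day 2 replicate 1), 2 to 5 on day 5 (2 without TNBS day 5 replicate 3), 1 to 2 on day 7 (2 without TNBS day 7 replicate 2 or TNBS day 14 replicate 3), 0 to 1 on day 14 and 0 to 1 in the F test (1 in both without TNBS day 2 replicate 3). Sign changes of values called in neither are not counted here.

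The replicate numbers were not treated as pairs: of 30 same-numbered pairs of arrays 13 had correlated deviations above 0.1, against 12 of 60 other pairs, and 9 of 15 arrays correlated best with their own number. With the number as a replicate block 1 of the 8 genes (Cxcl9) was called on day 5 and 0 on day 7: Cxcr4, Cxcl16 and Cxcl12 had limma adjusted p of 0.146, 0.0794 and 0.0592 on day 5, and Cxcr4 0.0519 on day 7. These are the probe sets that stand for each gene. The other Cxcl9 probe set, 1382454_at, was not called on day 5 with the block (adjusted p = 0.129). The other Cxcr4 probe sets stayed called on day 7. With the block 3643 probe sets were called on day 2 and 2137 on day 14.

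Over all probe sets, 5900, 8255, 8800 and 3632 were called on days 2, 5, 7 and 14; on the deposited scale 25866, 25444, 25203 and 26951, with median centring 12264, 14356, 15786 and 11025, with 1 probe set per gene, over 14217 instead of 31042 tested, 3201, 4538, 4837 and 1779, at 0.01 2619, 4394, 5030 and 1495, and with array weights 5932 on day 14. Between days 14 and 7, 1286 were called, against 3034 with array weights, 766 with the replicate block and 374 at 0.01. In the F test among days 760 were called, against 2153 with array weights, 76 with the block, 29 with only the TNBS arrays and 150 at 0.01. Leaving out 1 array gave 3057 (without TNBS day 2 replicate 3) to 6814 on day 2, 5121 (without TNBS day 5 replicate 2) to 8539 on day 5, 6080 to 9185 on day 7, 1772 (without TNBS day 14 replicate 2) to 3934 on day 14, 433 (without TNBS day 7 replicate 1) to 1799 between days 14 and 7 and 241 (without TNBS day 14 replicate 3) to 1141 in the F test. The number of arrays, 3 per TNBS day, and the lack of a detection call for the dim probe sets of Cxcr3, Cxcl9 and Ifng limit these data.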
